A study of Homo sapiens with 9 samples.

Results

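Transcripts of epithelial junctions were followed in ZR-75-1, an established breast cancer cell line of luminal character that expresses the estrogen receptor. The list held 43 genes of adherens junctions, tight junctions and desmosomes and of factors that keep cells epithelial. It was put together by function, with earlier results of these data known, so that comparing its counts with those of all genes is a description. A gene was measured when the platform's probe table named a probeset for it. That was so for 36 of the 43, out of 14884 named genes in all. They comprised 14 tight junction genes, 14 desmosomal genes, 7 regulators and, of the adherens group, EPCAM alone. CDH1, CDH3, CTNNA1, CTNNB1, CTNND1, F11R and RAB25 were not analysed here, so that nothing below describes the cadherin-catenin complex of adherens junctions.

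Cells had been transfected with a lipid reagent carrying 50 nM miR-150-5p mimic, the same reagent carrying 50 nM of a non-specific negative control RNA, or the reagent without RNA (mock). RNA was taken 48 h later, and each of the 3 groups had 3 arrays of the Affymetrix Human Gene 2.0 ST type. The series was made to see what returning this microRNA does to an estrogen receptor-positive line. The labels describe triplicate transfections without saying that they were independent experiments. The p-values thus set a group difference against the spread among these samples only, and that spread may be technical. A microRNA mimic is a short synthetic duplex that enters the silencing complex like the natural microRNA. How much of it entered the cells was not analysed here.

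Epithelial cells are held together by 3 kinds of contact. Tight junctions seal the space between cells with strands of claudins and occludin, which ZO proteins tie to actin. Desmosomes join neighbouring cells through desmogleins and desmocollins, cadherins whose tails bind plakoglobin, plakophilins and desmoplakin and so reach the keratin filaments. Grainyhead-like and OVO-like transcription factors and the ESRP splicing factors maintain this state, while ZEB and SNAI repressors bind E-boxes in the promoters of junction genes and oppose it. In simple and luminal epithelia the usual desmosomal cadherins are DSG2 and DSC2, and DSG1, DSG3, DSC1 and DSC3 belong mainly to stratified and basal epithelia.

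All values are log2 intensities of 1 probeset per gene, and a change is a difference of group means on that scale. A probeset's brightness depends on its probes as well as on the transcript, so that genes are not ranked against each other. The median of all genes, 5.44, serves only to mark dim probesets. Medians of the 9 arrays ranged from 4.22 to 4.27. Within a group, arrays had mean correlations of 0.985 to 0.991 over all probesets, but mock replicate 3, mimic replicate 1 and mimic replicate 2 correlated less with their own group than with the other groups. A gene was called when limma's adjusted p (Benjamini-Hochberg, over all 14884 genes) was under 0.05. Under that rule 82 genes were called against the negative control (30 higher and 52 lower) and 45 against mock (25 higher and 20 lower). With quantile normalization the 34 genes called against mock split into 12 higher and 22 lower.

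The labelled cell type was checked against its markers. All 11 luminal markers, ESR1, GATA3, FOXA1 and KRT18 among them, lay above the median of all genes. None of 4 fibroblast markers, 1 of 5 leukocyte markers (CD68), 1 of 8 endothelial markers (ESAM) and 2 of 5 basal or myoepithelial markers (OXTR and EGFR) did. Among the junction genes 28 of 36 lay above it. The 8 dim ones were DSG1, DSG3, DSC1, DSC3 and PKP1, the stratified forms of the desmosome, with CLDN8, CLDN12 and OVOL2. The table holds no detection call, so that a dim value cannot be told from background.

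DSG2, the desmoglein of simple epithelia, was the single junction gene called, and it fell in cells given the mimic. Its log2 value was 8.71, 8.66 and 8.76 on the mock arrays, 8.76, 8.79 and 8.84 on the negative control arrays and 7.76, 8.16 and 8.30 on the mimic arrays. All 3 mimic arrays lay below all 6 control arrays, and they varied most (SD 0.28, against 0.05 in mock and 0.04 with the negative control; n = 3 each). Against the negative control DSG2 fell by 0.72 ± 0.12 (SE; 3 arrays a group), or 1.65-fold, with a 95% interval from -0.999 to -0.447 and a limma adjusted p = 0.0409. Against mock it was lower, with a log2 change of -0.64 ± 0.12 and an interval from -0.91 to -0.36. There it missed the threshold, with an adjusted p = 0.0905. The negative control itself differed from mock by 0.09 ± 0.12. In both mimic comparisons it had the lowest adjusted p of the 36 genes. In RNA from whole cultures, fewer cells with a transcript and less of it per cell cannot be told apart.

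**Figure D1:**
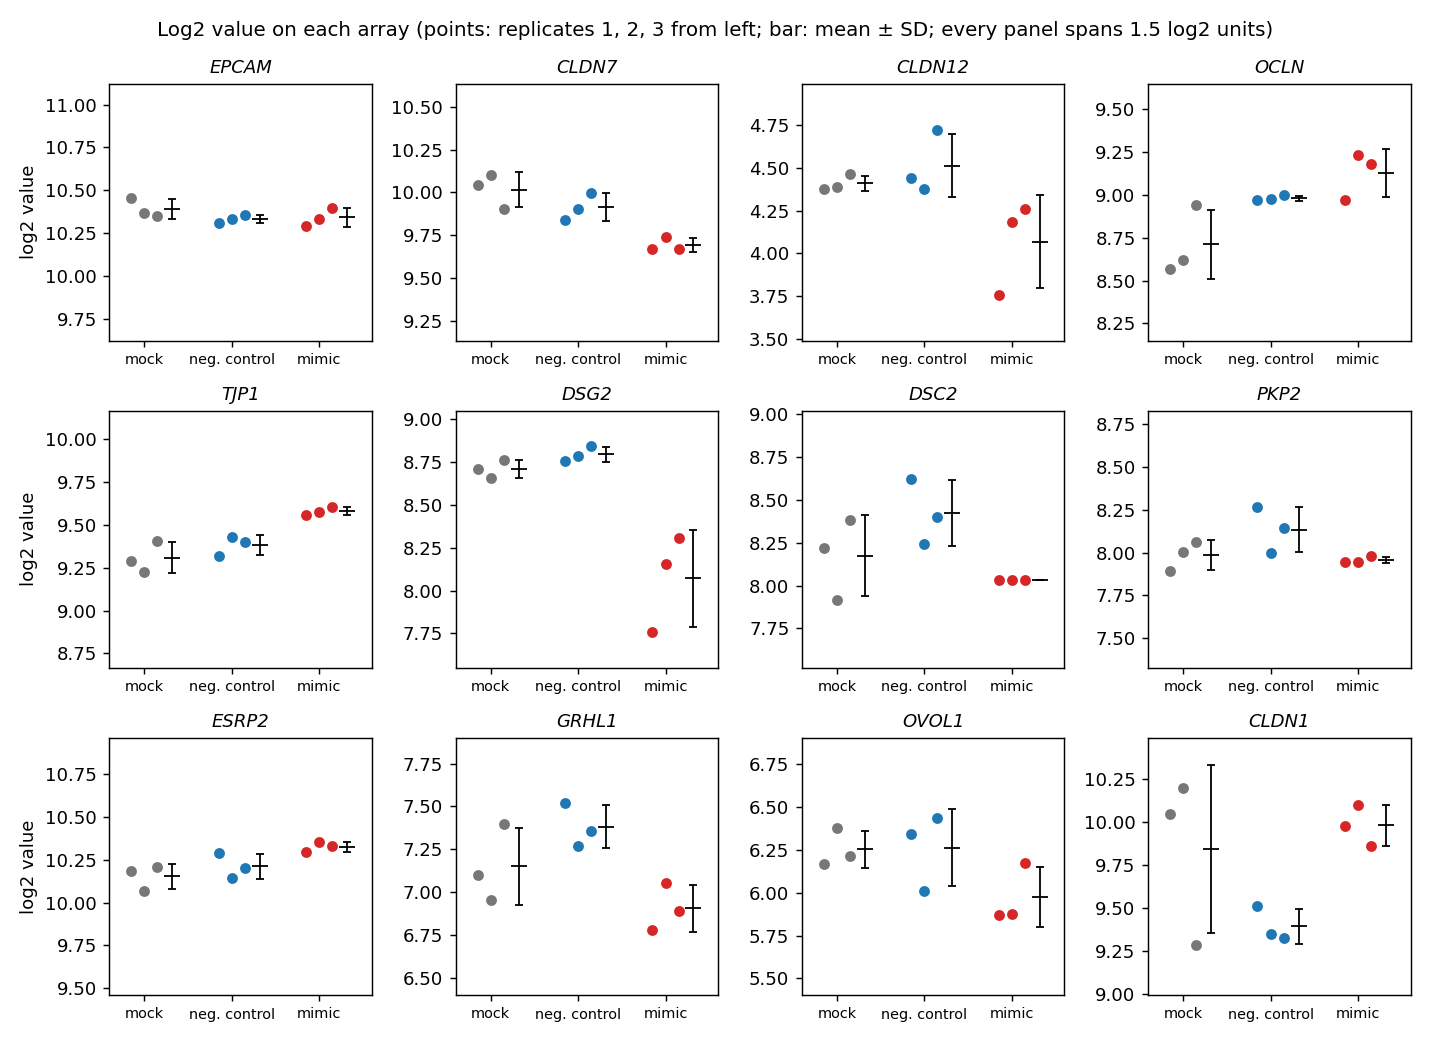
Log2 value (vertical axis, log2 intensity) of 12 junction genes on each of the 9 arrays, grouped by mock, negative control and mimic (horizontal axis). Points are replicates 1, 2 and 3 from left to right, the bar beside them is the mean ± SD (n = 3), and every panel spans the same number of log2 units. DSG2 sits between 7.76 and 8.30 on the mimic arrays and between 8.66 and 8.84 on the others, while EPCAM stays between 10.29 and 10.46 on all 9.

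The DSG2 call depended on single arrays and on the number of probesets tested, while its direction was negative in all 18 alternatives. It passed in 7 of 18 alternatives against the negative control, with a log2 change between -0.84 and -0.57 and adjusted p between 0.0121 and 0.168. Among the 11 in which it lost the call were those that left out mock replicate 1, 2 or 3 (limma adjusted p = 0.0766, 0.0834 and 0.0527), negative control replicate 1, 2 or 3 (0.137, 0.134 and 0.168) or mimic replicate 1 or 2 (0.0601 and 0.104), the fit of the 6 arrays alone (0.127) and the test of all 53617 probesets (0.160). Mock arrays entered the comparison with the negative control only through the estimate of the spread that the 3 groups share. Against mock DSG2 passed in 3 of 18 alternatives: among genes brighter than the median (0.0318), after quantile normalization (0.0429) and with array weights (0.0460). Mimic replicate 1 held the lowest value. Without it the change was -0.57 against the negative control and -0.48 against mock.

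**Figure D2:**
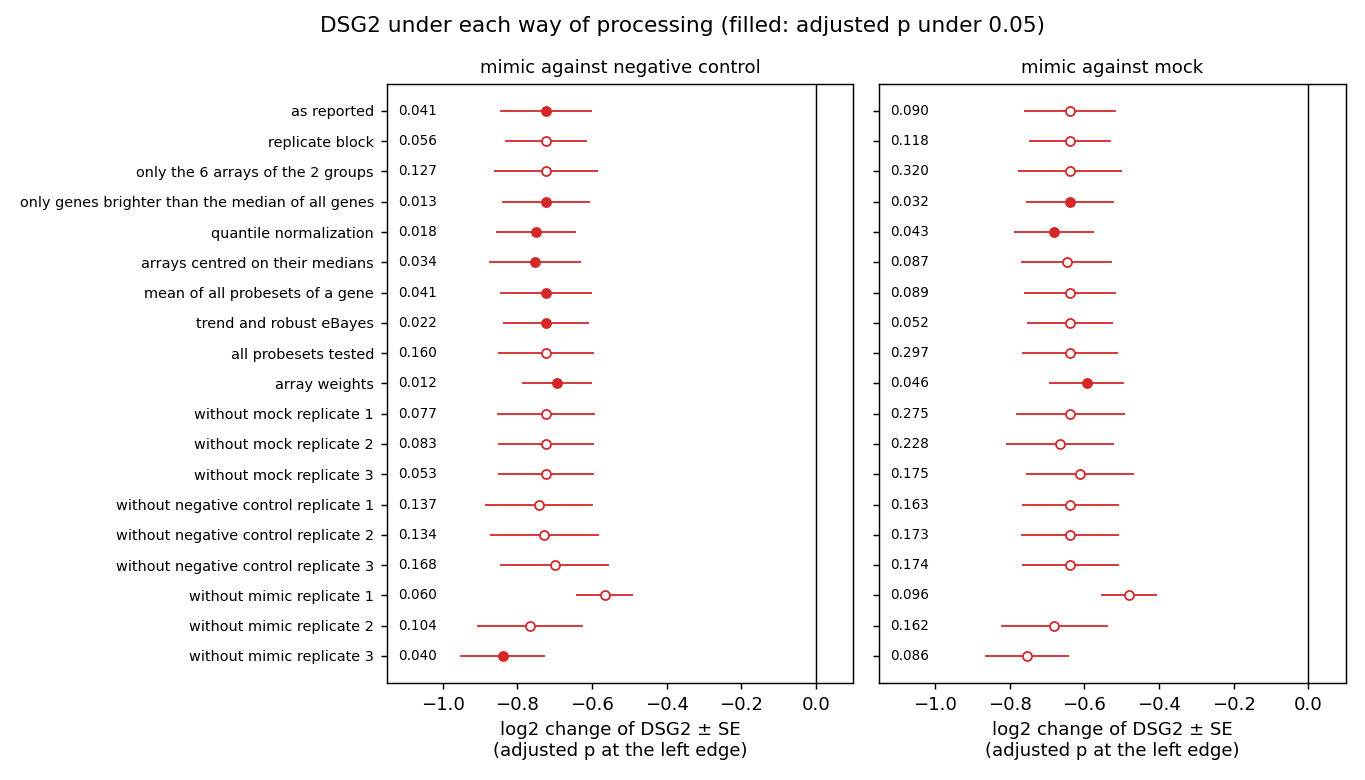
Log2 change of DSG2 with its standard error (horizontal axis) under each way of processing the 9 arrays (vertical axis), for mimic against negative control and mimic against mock. The adjusted p is printed at the left edge and filled points passed. The change stays between -0.84 and -0.57 on the left and between -0.75 and -0.48 on the right, while the adjusted p crosses the threshold.

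Upstream sequence is given for DSG2 as the gene called, for CLDN7 and TJP1 as bright tight junction genes whose mimic arrays lay apart from all 6 control arrays in opposite directions, and for GRHL1 as the regulator with the lowest p. Each runs 5′ to 3′ over the 250 bases before a transcript start in RefSeq (GRCh38.p14). CLDN7 is shown at both of its starts and TJP1 at the first of its 4. Capitals mark the E-box CAGGTG on either strand (CACCTG where it lies on the other), the core bound by ZEB and SNAI factors.
DSG2, chr18:31497927-31498176, plus strand: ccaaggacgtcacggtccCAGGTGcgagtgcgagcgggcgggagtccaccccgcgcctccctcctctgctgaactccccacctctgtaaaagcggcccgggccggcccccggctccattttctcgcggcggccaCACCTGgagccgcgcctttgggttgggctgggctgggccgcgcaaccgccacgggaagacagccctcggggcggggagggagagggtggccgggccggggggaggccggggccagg
CLDN7, first start, chr17:7263214-7263463, minus strand: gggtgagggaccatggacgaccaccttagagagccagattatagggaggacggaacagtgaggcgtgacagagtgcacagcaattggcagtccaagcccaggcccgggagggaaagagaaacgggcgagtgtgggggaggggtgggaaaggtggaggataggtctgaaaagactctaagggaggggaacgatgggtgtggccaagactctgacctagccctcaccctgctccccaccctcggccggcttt
CLDN7, second start, chr17:7262479-7262728, minus strand: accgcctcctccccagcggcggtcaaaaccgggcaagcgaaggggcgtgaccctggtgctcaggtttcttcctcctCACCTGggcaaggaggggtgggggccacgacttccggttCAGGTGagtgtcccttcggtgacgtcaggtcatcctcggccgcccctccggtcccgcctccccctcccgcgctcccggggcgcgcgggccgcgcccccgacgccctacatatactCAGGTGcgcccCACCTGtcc
TJP1, chr15:29969050-29969299, minus strand: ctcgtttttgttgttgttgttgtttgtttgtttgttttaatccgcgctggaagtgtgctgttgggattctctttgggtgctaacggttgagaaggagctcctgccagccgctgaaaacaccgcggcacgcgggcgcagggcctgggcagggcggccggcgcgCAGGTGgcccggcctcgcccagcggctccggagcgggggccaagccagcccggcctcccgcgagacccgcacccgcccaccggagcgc
GRHL1, chr2:9951443-9951692, plus strand: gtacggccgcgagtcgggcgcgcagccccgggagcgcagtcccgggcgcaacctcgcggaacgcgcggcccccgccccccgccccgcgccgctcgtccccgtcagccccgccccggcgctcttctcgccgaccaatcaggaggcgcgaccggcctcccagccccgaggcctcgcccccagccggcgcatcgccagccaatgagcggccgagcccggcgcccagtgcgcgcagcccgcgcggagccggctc

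The DSG2 sequence holds the E-box core at 2 places, that of the second CLDN7 start at 4 and that of TJP1 at 1, and the others hold none. Searches were made over windows of 300 bases, which add the first 50 of the transcript. The windows of the other TJP1 starts, which are not printed, hold no E-box core. Which start the TJP1 probeset reads was not analysed here. Of the measured junction genes 22 had such windows, 31 in all, and those of OCLN overlap each other. The E-box core occurred in 12 of the 31 (38.7%) and in 20.6% of all 35116 windows of the table. These 12 belonged to 11 genes. Changes were below zero in both mimic comparisons for CLDN7, CRB3, DSC2, DSG2, DSP, JUP and TJP3. They were above zero in both for TJP1 and OCLN, and differed in sign between the comparisons for CLDN3 and DSG1. The grainyhead-like core AACCNGTT, searched on both strands, occurred in 1 of the 31, that of CGN, and in 1.73% of all windows. A match is only a match of letters.

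Over all 36 genes calls were few, and changes lay on both sides of zero. Against the negative control 0 junction genes rose, 1 fell and 35 did not pass, where 0.551% of all genes were called and 0.349% were called lower. At an unadjusted p under 0.05 limma gave 2 higher and 7 lower, 25% of the 36 against 12.6% of all genes (6.18% higher and 6.39% lower) and 16.9% of genes brighter than the median. Against mock 0 of 36 passed, where 0.302% of all genes did. There 3 were higher and 3 lower at an unadjusted p under 0.05, 16.7% against 10.7% of all genes (5.87% higher and 4.84% lower) and 14.2% of the brighter ones. The median change of the 36 was -0.06 against the negative control and -0.04 against mock, where the medians of all genes were 0.01 and 0.01. Changes above zero numbered 15 and 16 of 36, beside 53.4% and 53.8% of all genes. Both comparisons use the same 3 mimic arrays.

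Array groups without overlap gave a similar count. Against the negative control the 3 mimic arrays of 12 of 36 junction genes lay apart from the 3 control arrays, 4 higher and 8 lower. That was 33.3%, against 16.4% of all genes (8.42% higher and 8.01% lower) and 23.7% of the brighter ones. Against mock it was 8 of 36, 5 higher and 3 lower, or 22.2% against 12.7% of all genes (7.21% higher and 5.44% lower) and 17.6% of the brighter ones. DSG2, CLDN7 and CLDN12 were lower, and TJP1 and ESRP2 higher, without overlap in both. These 5 were 13.9% of the 36, where 7.68% of all genes and 12.1% of the brighter ones lay apart in the same direction in both. The mean log2 value of the 36 lay between 7.21 and 7.25 on the mimic arrays, between 7.26 and 7.29 on the mock arrays and between 7.27 and 7.33 on the negative control arrays. Without DSG2 the mimic and mock arrays overlapped, from 7.20 to 7.22 and from 7.21 to 7.25, while the mimic arrays still lay below the negative control arrays (7.23 to 7.285). For 29 of 36 genes the 95% interval lay within 0.5 of zero in each mimic comparison, so that changes beyond that size lie outside the interval for most of them. Against the negative control these include the dim DSG1, DSG3, DSC1, DSC3, PKP1, CLDN8 and OVOL2. Their values cannot be told from background, so that a narrow interval does not bound a change of the transcript there.

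**Figure D3:**
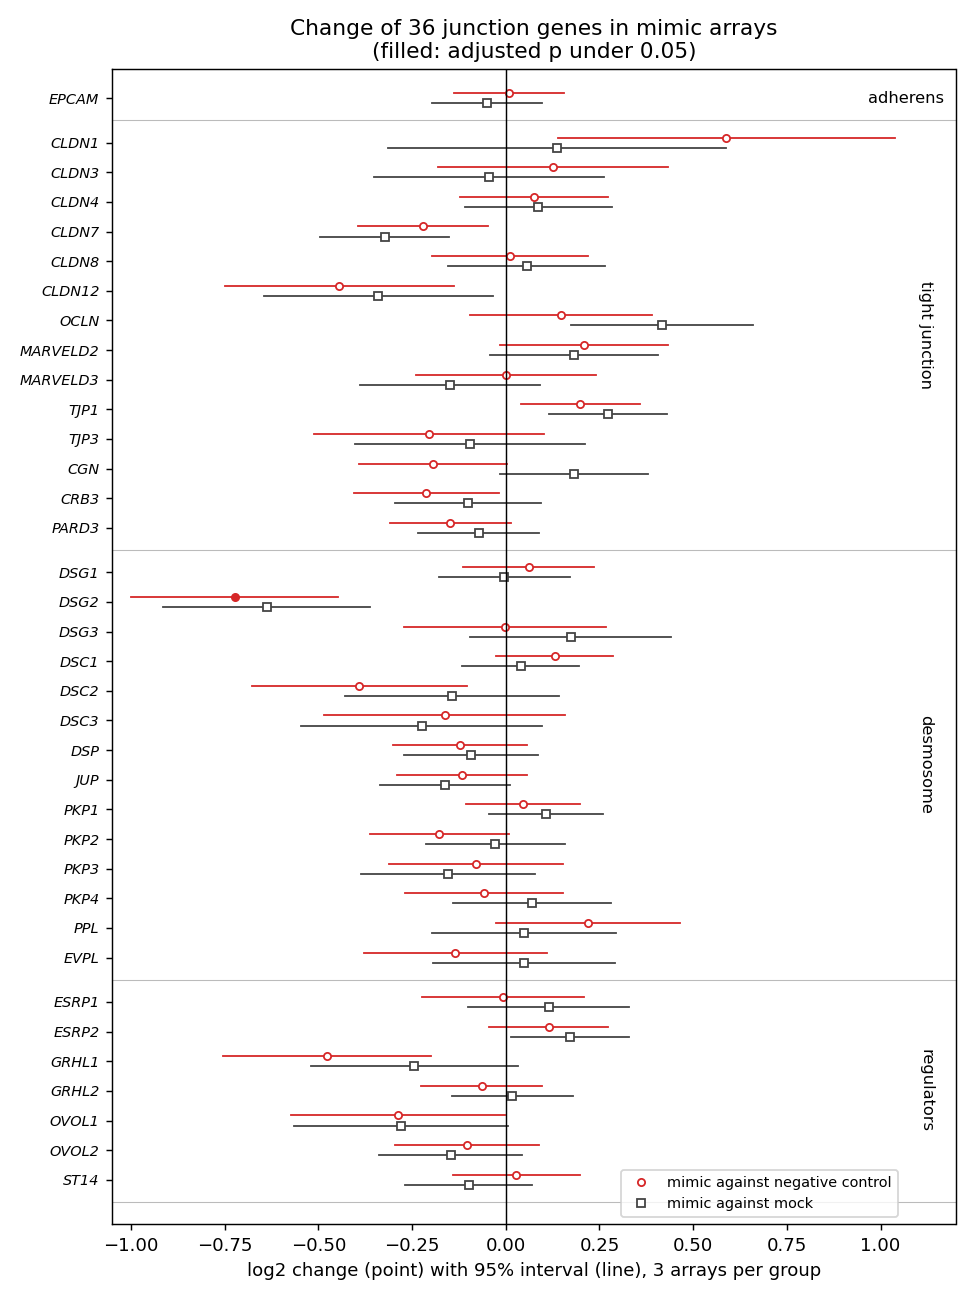
Log2 change (horizontal axis) of the 36 measured junction genes (vertical axis, by junction type) in mimic arrays against negative control (circles) and against mock (squares). Lines are 95% intervals from limma with 3 arrays per group, and filled symbols passed an adjusted p of 0.05. DSG2 against the negative control, at -0.72, is the filled symbol, and CLDN1 at 0.59 has the highest value.

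In the desmosome 10 of 14 genes had changes below zero against the negative control, 1 of 14 was called, and the median was -0.10. There 28.6% were above zero, beside 53.4% of all genes, and 0.551% of all genes were called. At an unadjusted p under 0.05 limma gave 0 higher and 2 lower (14.3%, beside 12.6% of all genes). Against mock 8 of 14 were below zero and the median was -0.02, with 42.9% above zero beside 53.8% of all genes. At the same unadjusted p 0 were higher and 1 lower than mock (7.14%, beside 10.7% of all genes). DSC2, the desmocollin partner of DSG2, had log2 values of 8.62, 8.24 and 8.40 with the negative control and 8.03 on each of the 3 mimic arrays. The mimic values lay below all 3 of these but inside the mock values of 8.22, 7.92 and 8.39. Its change was -0.39 ± 0.13 against the negative control (limma adjusted p = 0.252) and -0.14 ± 0.13 against mock (adjusted p = 0.726). The 3 mimic values of DSC2 span only 0.00064 log2 units. Values repeated exactly on 2 or more arrays occur in the deposited table for 57.1% of all genes and for 16 of the 36 junction genes.

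Among the proteins that sit under the desmosomal cadherins no gene passed. PKP2, a plakophilin that binds desmoplakin, gave 7.89, 8.002 and 8.06 in mock, 8.26, 7.997 and 8.14 with the negative control and 7.95, 7.95 and 7.98 with the mimic. The mimic arrays lay below the negative control arrays and within the range of mock. Its change was -0.18 ± 0.08 against the negative control and -0.03 ± 0.08 against mock (adjusted p = 0.423 and 0.924). JUP, which encodes plakoglobin, had log2 changes of -0.12 ± 0.08 and -0.16 ± 0.08 against the negative control and mock. DSP, which encodes desmoplakin and anchors keratin filaments, had log2 changes of -0.12 ± 0.08 and -0.09 ± 0.08. PKP3 gave -0.08 and -0.15, and PKP4 gave -0.06 and 0.07.

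PPL and EVPL, plakins best known from the cornified envelope, had changes of 0.22 ± 0.11 and -0.13 ± 0.11 against the negative control and of 0.05 each against mock. None of the dim genes of stratified desmosomes passed. DSG1, DSG3, DSC1 and PKP1 ranged from -0.00 to 0.13 against the negative control and from -0.00 (DSG1) to 0.17 (DSG3) against mock. DSC3 was at -0.16 ± 0.14 and -0.22 ± 0.14. DSC1 had no overlap between the mimic and negative control arrays, with dim means of 3.004 and 2.874. The genes DSC3, DSC2, DSC1, DSG1, DSG4, DSG3 and DSG2 follow one another in this order on chromosome 18 in the RefSeq gene table, with no other protein-coding gene among them. Within that cluster DSG2 and DSC2 were the members above the median of all genes, and DSG4 was not on the list of 43.

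Changes of tight junction genes lay on both sides of zero, and none of 14 passed. Against the negative control 8 of 14 were above zero (57.1%, beside 53.4% of all genes), and the median was 0.01. Of these 14, 2 were higher and 3 lower at an unadjusted p under 0.05 in limma (35.7%, against 12.6% of all genes). Against mock 7 of 14 were above zero (50%, beside 53.8% of all genes), with a median of 0.01. At the same unadjusted p 2 were higher and 2 lower than mock (28.6%, against 10.7% of all genes). The spread of single genes was wide beside these medians: the changes ran from -0.44 (CLDN12) to 0.59 (CLDN1) against the negative control and from -0.34 (CLDN12) to 0.42 (OCLN) against mock.

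CLDN7, a claudin of simple and glandular epithelia, was lower on every mimic array. It gave 10.05, 10.10 and 9.90 in mock, 9.84, 9.90 and 9.999 with the negative control and 9.67, 9.74 and 9.67 with the mimic. Its change was -0.22 ± 0.08 against the negative control (limma adjusted p = 0.281) and -0.32 ± 0.08 against mock (adjusted p = 0.168). CLDN12, a claudin whose probeset is dim here, gave 4.38, 4.39 and 4.46 in mock, 4.44, 4.38 and 4.72 with the negative control and 3.76, 4.19 and 4.26 with the mimic. The mimic arrays again lay below all others, replicate 1 by the widest margin. The changes of CLDN12 were -0.44 ± 0.14 and -0.34 ± 0.14 against the negative control and mock (adjusted p = 0.221 and 0.421).

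TJP1, which encodes the scaffold ZO-1, was higher on every mimic array. It gave 9.29, 9.23 and 9.41 in mock, 9.32, 9.43 and 9.40 with the negative control and 9.56, 9.58 and 9.61 with the mimic. The change was 0.20 ± 0.07 against the negative control (limma adjusted p = 0.288) and 0.27 ± 0.07 against mock (adjusted p = 0.197). OCLN, which encodes occludin, gave 8.57, 8.62 and 8.94 in mock, 8.97, 8.97 and 8.997 with the negative control and 8.97, 9.23 and 9.18 with the mimic. All 3 mimic values were above mock, and so were all 3 negative control values. The change of OCLN was larger against mock (0.42 ± 0.11, adjusted p = 0.197) than against the negative control (0.15 ± 0.11, adjusted p = 0.615), and the negative control stood 0.27 ± 0.11 above mock (adjusted p = 0.976). MARVELD2, which encodes tricellulin of 3-cell contacts and lies next to OCLN on chromosome 5, had log2 changes of 0.21 ± 0.10 and 0.18 ± 0.10.

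CLDN1, a barrier-forming claudin, is shown by array because of its spread, which was seen before it was chosen. It gave 10.05, 10.20 and 9.29 in mock, 9.51, 9.35 and 9.32 with the negative control and 9.98, 10.10 and 9.86 with the mimic. The mimic arrays were above the negative control arrays, while mock replicate 3 lay with the negative control and the other two mock arrays with the mimic. Its change was 0.59 ± 0.20 against the negative control (limma adjusted p = 0.270) and 0.14 ± 0.20 against mock (adjusted p = 0.835). Without mock replicate 3, which enters the shared estimate of the spread, CLDN1 passed against the negative control (0.59 ± 0.09, adjusted p = 0.0382), and its change against mock became -0.14 ± 0.10 (adjusted p = 0.639).

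The cytoplasmic and polarity members of the tight junction did not pass either. CGN, which encodes cingulin, gave 6.06, 6.18 and 6.14 in mock, 6.55, 6.31 and 6.64 with the negative control and 6.29, 6.31 and 6.31 with the mimic. The mimic values lay above mock (0.18 ± 0.09) and reached only the lowest negative control array (-0.19 ± 0.09), to which mimic replicates 2 and 3 were equal. CGN was chosen for display after its values were seen. CRB3 and PARD3, which set apical polarity, had log2 changes of -0.21 ± 0.09 and -0.15 ± 0.07 against the negative control and by -0.10 ± 0.09 and -0.07 ± 0.07 against mock. TJP3, which encodes ZO-3, had log2 changes of -0.21 ± 0.14 and -0.09 ± 0.14. MARVELD3 was at 0.00 ± 0.11 and -0.15 ± 0.11. Of the remaining claudins, CLDN3 (0.13 and -0.04), CLDN4 (0.07 and 0.09) and CLDN8 (0.01 and 0.06) stayed within 0.13 of zero against the negative control and mock.

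Among the regulators 5 of 7 were below zero against the negative control and 4 of 7 against mock, with medians of -0.06 and -0.10. Changes above zero made up 28.6% and 42.9% of the 7, beside 53.4% and 53.8% of all genes. None of the 7 passed. At an unadjusted p under 0.05 limma gave 2 against the negative control, 28.6% beside 12.6% of all genes, and 1 against mock, 14.3% beside 10.7%. GRHL1, a grainyhead-like transcription factor, had values of 7.10, 6.95 and 7.40 in mock, 7.52, 7.27 and 7.36 with the negative control and 6.78, 7.05 and 6.89 with the mimic. The mimic arrays lay below the negative control arrays but overlapped mock. Its change was -0.48 ± 0.12 against the negative control, with an interval from -0.75 to -0.20 and a limma adjusted p = 0.145, and -0.24 ± 0.12 against mock, with an interval from -0.52 to 0.03 and an adjusted p = 0.527. The negative control stood 0.23 ± 0.12 above mock. In 18 alternatives the adjusted p of GRHL1 against the negative control lay between 0.0594 and 0.367. GRHL2, the related factor of luminal cells, had log2 changes of -0.06 ± 0.07 and 0.02 ± 0.07.

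ESRP2, an epithelial splicing factor, was slightly higher on each mimic array. It gave 10.18, 10.07 and 10.21 in mock, 10.29, 10.14 and 10.20 with the negative control and 10.29, 10.35 and 10.33 with the mimic. The change was 0.11 ± 0.07 against the negative control and 0.17 ± 0.07 against mock (limma adjusted p = 0.545 and 0.435). ESRP1 had log2 changes of -0.01 ± 0.10 and 0.12 ± 0.10. OVOL1, an OVO-like zinc finger repressor, gave 6.17, 6.38 and 6.21 in mock, 6.34, 6.01 and 6.43 with the negative control and 5.87, 5.88 and 6.17 with the mimic. Mimic replicate 3 overlapped the controls, and the changes were -0.29 ± 0.13 and -0.28 ± 0.13 (adjusted p = 0.394 and 0.478). A dimmer probeset of OVOL1, at a mean of 4.195, had log2 changes of -0.05 ± 0.13 and -0.13 ± 0.13. OVOL2 had log2 changes of -0.10 ± 0.09 and -0.15 ± 0.09, and ST14, which encodes the membrane protease matriptase, of 0.03 ± 0.08 and -0.10 ± 0.08.

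EPCAM, an adhesion glycoprotein of epithelial cells, stood for the adherens group and had changes near zero. It gave 10.46, 10.37 and 10.35 in mock, 10.31, 10.33 and 10.36 with the negative control and 10.29, 10.34 and 10.40 with the mimic. The groups overlapped. Its change was 0.01 ± 0.07 against the negative control, with a 95% interval from -0.14 to 0.15, and -0.05 ± 0.07 against mock, with an interval from -0.20 to 0.10.

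Setting the negative control RNA beside mock gives the values that transfecting a non-specific RNA leaves on its own. None of the 36 junction genes was called, where 0% of all genes were, and the lowest limma adjusted p was 0.976. At an unadjusted p under 0.05 there were 3 of 36, 8.33% against 4.18% of all genes (2.14% higher and 2.04% lower) and 3.32% of the brighter ones: CGN (0.38 ± 0.09) and OCLN (0.27 ± 0.11) higher and CLDN1 (-0.45 ± 0.20) lower. Groups without overlap numbered 5 of 36, all higher with the negative control (CGN, CRB3, DSG3, OCLN and PARD3). That was 13.9%, against 8.1% of all genes (4.77% higher and 3.33% lower) and 9.38% of the brighter ones. The median change of the 36 was 0.05, where that of all genes was 0.01, and 22 of 36 were above zero beside 52.8% of all genes. GRHL1 (0.23 ± 0.12), DSC2 (0.25 ± 0.13) and PKP2 (0.15 ± 0.08) also had higher means in the negative control than in mock, so that their mimic changes read further below zero against the negative control.

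The ZEB, SNAI and TWIST repressors were read as part of a list of epithelial-mesenchymal transition, of which none passed. Of its 14 genes 11 were measured, 2 of them above the median of all genes (SNAI3 and FN1), and 0 rose, 0 fell and 0 had an unadjusted p under 0.05 in limma in either mimic comparison. Their median changes were -0.05 and -0.09 against the negative control and mock. FN1, which encodes fibronectin, had a log2 change of -0.17 ± 0.08 against the negative control, and ZEB1 of -0.16 ± 0.10 at a mean of 2.87. The highest value of the list was that of VIM, which encodes vimentin, at 0.24 ± 0.16 against the negative control and -0.05 ± 0.16 against mock. The mean over the 11 lay between 4.34 and 4.36 on the mimic arrays, between 4.38 and 4.41 with the negative control and between 4.42 and 4.47 in mock.

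Other junction genes, listed by function, gave no call. Of 14 further adherens genes 7 were measured and none passed. At an unadjusted p under 0.05 limma gave 3 lower and none higher against the negative control, 42.9% beside 12.6% of all genes (6.39% lower). Without overlap 4 of the 7 were lower there, 57.1% beside 16.4% of all genes (8.01% lower). Against mock 2 were lower at an unadjusted p under 0.05 (28.6%, beside 10.7% of all genes). Without overlap 3 were lower than mock (42.9%, beside 12.7% of all genes). The mean of the 7 lay between 6.85 and 6.87 on the mimic arrays, below all 6 control arrays at 6.93 to 7.01. The lowest p were those of LIMA1, an actin-binding partner of catenins (-0.29 ± 0.08 against the negative control, limma adjusted p = 0.178), and NECTIN4, an adhesion molecule (-0.29 ± 0.10, adjusted p = 0.254). VCL, which encodes vinculin and was named after its value was seen, was farthest below zero (-0.31 ± 0.11, adjusted p = 0.270). Of 40 further tight junction genes 32 were measured and none passed. AMOT, which encodes angiomotin, had a log2 change of -0.38 ± 0.08 (adjusted p = 0.0781) and ILDR1, of tricellular contacts, of -0.29 ± 0.11. The median changes of these lists were -0.09 and 0.04.

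Of 5 further desmosomal genes DSG4 and CDSN were measured (0.10 ± 0.13 and 0.02 ± 0.13), and of 9 hemidesmosomal genes 3, with CD151 at 0.16 ± 0.07 and DST at 0.03 ± 0.08. Of 21 further epithelial regulators 10 were measured and none passed. SPDEF (0.22 ± 0.07) and EHF (0.23 ± 0.09), ETS factors of luminal cells, had the lowest p, and SPDEF is in the luminal list as well. ELF5, an ETS factor of secretory cells named after its value was seen, had a log2 change of 0.70 ± 0.27. Its mimic values were 6.97, 5.82 and 5.95, replicate 1 far above the others, beside 5.57, 5.48 and 5.61 with the negative control. Of the 10 further regulators 8 were above zero against the negative control (80%, beside 53.4% of all genes), with a median of 0.11. None of 17 gap junction genes was analysed here.

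**Figure D4:**
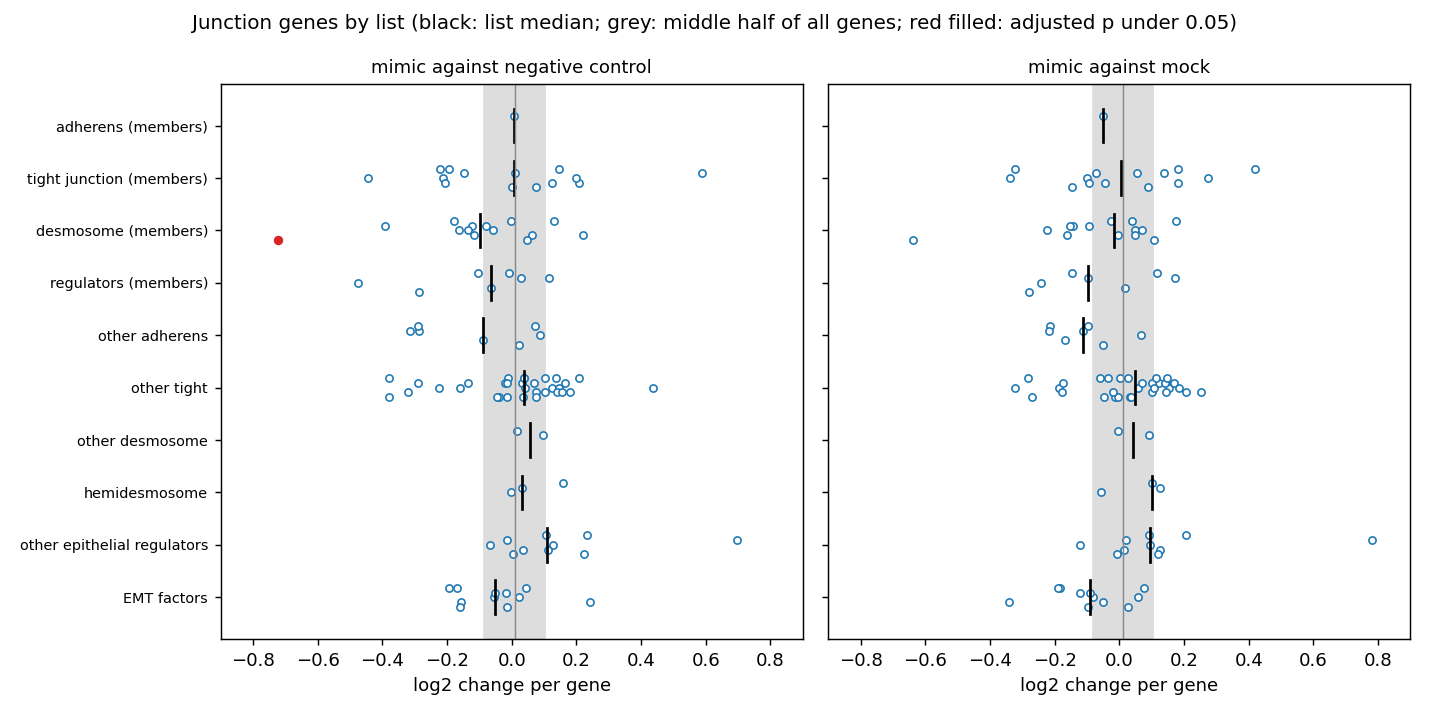
Log2 change per gene (horizontal axis) in mimic arrays against negative control (left) and mock (right), for the 36 junction genes by type and for further lists (vertical axis). Each point is a gene, black bars are list medians, and the grey band holds the middle part of all genes between their quartiles. DSG2, at -0.72 on the left and -0.64 on the right, lies farthest below zero, and further tight junction genes centre on 0.04 and 0.05.

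Marker lists of cell types are given beside these results, and their part in them was not tested. Of 11 luminal markers ESR1 rose (0.46 ± 0.07 against the negative control, limma adjusted p = 0.0295), and 10 did not pass. At an unadjusted p under 0.05 limma gave 5 higher and none lower there, 45.5% beside 12.6% of all genes. Without overlap 5 were higher and none lower, 45.5% beside 16.4% of all genes. Against mock 1 of the 11 was called, and 2 were higher at an unadjusted p under 0.05 (18.2%, beside 10.7% of all genes). The mean of the 11 luminal markers lay between 9.72 and 9.87 on the mimic arrays, between 9.57 and 9.64 with the negative control and between 9.60 and 9.76 in mock. The mean of 8 endothelial markers lay between 4.10 and 4.21, between 3.98 and 4.09 and between 3.97 and 4.07 on the same groups of arrays. None of the endothelial markers passed (PECAM1, 0.47 ± 0.17; ESAM, -0.27 ± 0.11). Among 5 basal markers, 4 fibroblast markers and 5 leukocyte markers none passed, with the lowest p for OXTR (0.37 ± 0.15), FBN1 (0.13 ± 0.07) and LYZ (0.15 ± 0.08). In the means of the basal and leukocyte lists the mimic arrays overlapped both control groups. The fibroblast mean lay between 3.64 and 3.65 on the mimic arrays, inside the negative control range of 3.52 to 3.71 and below mock, at 3.68 to 3.88.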

How the data were processed

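The 9 arrays were grouped by the transfected agent in their labels (48 h, 3 arrays per group). The deposited table gives log2 values for 53617 probesets, made by the authors with RMA per the submitters' processing notes. RMA corrects background, equalises arrays and summarises probes, and low values are compressed. The deposited arrays did not share exactly 1 distribution, as their medians ranged from 4.22 to 4.27. RMA's version and the annotation release were not given in the sources used.

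The platform table named 16098 probesets, all matched to RefSeq identifiers, and 37519 are unnamed here. The probeset with the highest mean over 9 arrays stood for each of 14884 genes, without a filter. Values were fitted in R 4.3.3 with limma 3.58.1 (lmFit, eBayes), 1 mean per group over all 9 arrays, with 6 residual degrees of freedom. P-values are two-sided and Benjamini-Hochberg adjusted over all genes of a comparison, with a threshold of 0.05, and intervals are 95%. Precision is set by having 3 arrays a group, and an exact permutation test of 3 against 3 cannot go below p = 0.1. Shown by array are, per junction type, the 3 genes with the lowest p in either mimic comparison, called genes, DSG2, GRHL1 and genes without overlap in both comparisons; from other lists called genes or the 2 with the lowest p against the negative control are named. The members and lists were chosen with earlier results of these data known. Alternatives were the replicate number as a block, fewer arrays or genes, other scaling, probeset choice, all probesets, array weights and each array left out.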

Additional observations from a re-analysis of the deposited data

How the results depend on the processing

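Of 645 alternative values of single genes, 618 kept their direction and side of the threshold. DSG2 against the negative control lost its call in 11, and 4 gained one: DSG2 against mock in 3, and CLDN1 against the negative control without mock replicate 3.

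Genes called against the negative control (82) numbered 263 among genes brighter than the median, 169 with trend and robust eBayes, 268 with array weights, 8 with the 6 arrays alone, 6 over all probesets, and 7 to 121 when an array was left out (7 without mimic replicate 1). Against mock (45) the counts were 102 for the brighter genes, 1 with 6 arrays, 3 over all probesets and 1 to 10 with an array left out. With the replicate number as a block there were 16 and 3. Same-numbered arrays had correlated deviations of -0.06 to 0.13. For 3 of the 9 arrays the best match in both other groups had the same number. These values do not settle whether the numbers pair the arrays. The block ended the DSG2 call (adjusted p = 0.0561, limma).

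Junction genes called against the negative control were 0 with the block, 6 arrays or all probesets, and 0 to 1 with an array left out, where without mock replicate 3 the 1 was CLDN1. Against mock there was 1 among the brighter genes, after quantile normalization and with array weights, each time DSG2. Their median change against the negative control was -0.0759 after quantile normalization and -0.0892 with centred arrays, beside -0.00769 and -0.0178 for all genes. It was -0.0774 to -0.0449 with an array left out. Against mock it was -0.0681 after quantile normalization, beside -0.0109 for all genes, and -0.0656 to -0.0134 with an array left out. For negative control against mock it was 0.0656 in the brighter genes and 0.0706 with centred arrays.

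Small changes turned sign. EPCAM against the negative control was -0.0206 with centred arrays and -0.0202 to 0.0338 with an array left out. Against mock, with an array left out, PKP2 ranged from -0.0743 to 0.0101 and CLDN1 from -0.14 to 0.31. In negative control against mock, OVOL1 was -0.0217 after quantile normalization, -0.0346 as the mean of its probesets and -0.0767 to 0.14 with an array left out, and CLDN12 ranged from -0.000757 to 0.173 with an array left out. Dim probesets were not separated from background.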
